A study of Mus musculus with 8 samples.

Results

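Stretches of mouse autosomes that carried no CTCF peak over at least 200 kb in wild-type embryonic stem cells are described here. Each is an interval between neighbouring summits of the wild-type CTCF peak list on the same numbered autosome, and the ends of chromosomes were left out. Of 96305 such intervals, 1604 were at least 200 kb long, or 1.67% of the intervals. Together they covered 565 Mb, which is 23.6% of the 2398 Mb between the first and last summits of the 19 autosomes. The stretches were chosen by the summit positions of the wild-type CTCF list itself, so their length and the lack of CTCF in them are descriptions and were not tested.

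The data were chromatin immunoprecipitation and sequencing (ChIP-seq) peak lists for CTCF and for the cohesin subunit Smc3 in JM8.N4 cells, a mouse embryonic stem cell line kept without feeder cells in medium with serum and LIF. One group was the wild-type line (WT). The other was C59, a single clone that is homozygous for FLAG-Halo-CTCF and for Rad21-SNAPf-V5, so that both CTCF and the cohesin subunit Rad21 carry tags. Each of the 2 lines gave 1 library per protein, so no value has a replicate and no difference between lines was tested. Both lines were otherwise untreated, and with 1 clone the tags cannot be told apart from other differences between the lines. In WT the lists held 98759 CTCF and 47281 Smc3 peaks, and in C59 82227 CTCF and 25734 Smc3 peaks. They carry no read totals, so the depth of each library is unknown. Where no peak was called, signal below the cutoff used for calling remains possible. The cell type could not be checked against marker genes, since no expression was measured.

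A zinc finger protein, CTCF recognises a long DNA motif at sites across the genome. Cohesin is a ring-shaped complex, built on Smc1, Smc3 and Rad21, that extrudes chromatin loops and is halted at CTCF sites, so that the places where CTCF binds become loop anchors and domain borders. Gene-poor regions and clusters of tissue-specific gene families, such as those for odorant receptors, lie in late-replicating, largely silent chromatin in most cell types.

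As examples, the 250 bases before the start of 7 genes that start in stretches are printed 5′ to 3′ on the strand of the gene. They come from RefSeq's GRCm38.p6 promoter table, with each CG dinucleotide in capitals. The first 4 genes are examples, chosen after their values were seen, of genes with at least 1 of the 8 WT Smc3 peaks that lay in a stretch, without WT CTCF, within 1 kb of a gene start. The next 3 stand for the olfactory receptors, the vomeronasal receptors and the major urinary proteins, families with many genes inside stretches.
Fzd1: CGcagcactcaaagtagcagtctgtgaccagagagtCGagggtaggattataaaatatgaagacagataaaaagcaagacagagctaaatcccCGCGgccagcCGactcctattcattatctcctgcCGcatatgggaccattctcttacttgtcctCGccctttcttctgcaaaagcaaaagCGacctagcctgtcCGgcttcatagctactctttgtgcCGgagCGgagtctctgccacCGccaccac
Opcml: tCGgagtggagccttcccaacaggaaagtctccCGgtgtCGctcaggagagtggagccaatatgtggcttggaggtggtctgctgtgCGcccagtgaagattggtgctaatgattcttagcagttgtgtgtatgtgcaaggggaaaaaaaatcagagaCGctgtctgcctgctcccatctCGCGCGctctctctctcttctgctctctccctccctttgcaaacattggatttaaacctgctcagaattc
Tent5a: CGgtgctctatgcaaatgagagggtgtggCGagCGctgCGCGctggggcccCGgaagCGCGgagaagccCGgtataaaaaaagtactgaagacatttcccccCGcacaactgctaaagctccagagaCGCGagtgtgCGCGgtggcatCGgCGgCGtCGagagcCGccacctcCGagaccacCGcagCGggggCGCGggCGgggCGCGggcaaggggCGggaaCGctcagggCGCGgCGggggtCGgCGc
Rasgrf2: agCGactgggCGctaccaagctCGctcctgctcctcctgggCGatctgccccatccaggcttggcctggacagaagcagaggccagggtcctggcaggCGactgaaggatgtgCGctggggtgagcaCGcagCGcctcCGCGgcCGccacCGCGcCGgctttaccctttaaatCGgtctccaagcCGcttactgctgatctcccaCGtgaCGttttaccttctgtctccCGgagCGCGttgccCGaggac
Olfr1280: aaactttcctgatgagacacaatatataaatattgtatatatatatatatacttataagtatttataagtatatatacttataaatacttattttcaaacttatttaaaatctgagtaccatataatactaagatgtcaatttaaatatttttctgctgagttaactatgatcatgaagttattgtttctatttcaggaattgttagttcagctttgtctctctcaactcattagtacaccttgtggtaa
Vmn1r148: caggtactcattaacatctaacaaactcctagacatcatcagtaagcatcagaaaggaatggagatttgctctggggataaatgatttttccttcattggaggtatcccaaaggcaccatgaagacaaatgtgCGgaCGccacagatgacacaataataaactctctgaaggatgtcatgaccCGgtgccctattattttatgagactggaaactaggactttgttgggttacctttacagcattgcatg
Mup2: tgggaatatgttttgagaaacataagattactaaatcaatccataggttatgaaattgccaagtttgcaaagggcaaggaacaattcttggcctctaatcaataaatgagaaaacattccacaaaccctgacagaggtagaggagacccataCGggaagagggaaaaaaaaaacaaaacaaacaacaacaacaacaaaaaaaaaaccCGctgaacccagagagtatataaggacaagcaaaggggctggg
These windows lie at chr5:4758217-4758466 on the minus strand for Fzd1, chr9:27791049-27791298 on the plus strand for Opcml, chr9:85327151-85327400 on the minus strand for Tent5a and chr13:92131829-92132078 on the minus strand for Rasgrf2. Those of Olfr1280, Vmn1r148 and Mup2 lie at chr2:111315231-111315480 on the plus strand, chr7:22411981-22412230 on the plus strand and chr4:60139857-60140106 on the minus strand. The window of Tent5a held 34 CG dinucleotides, that of Rasgrf2 22, that of Fzd1 12 and that of Opcml 8. By contrast, the windows of Olfr1280, Vmn1r148 and Mup2 held 0, 3 and 2.

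The stretches were the tail of a broad distribution. All autosomal intervals had a median length of 8.83 kb, against 290 kb for the stretches, whose quartiles were 235 and 393 kb. Of the 1604, 751 were at least 300 kb long, 212 at least 500 kb, 25 at least 1000 kb and 5 at least 2000 kb. The threshold falls within a continuous run of lengths. Just inside it lay intervals of 200.097, 200.127 and 200.218 kb on chromosomes 18, 2 and 3, and just outside it intervals of 199.821, 199.869 and 199.901 kb on chromosomes 15, 4 and 12. Intervals of 100 to 200 kb, used below as the nearest comparison, numbered 3096 and covered 426 Mb, and the 91605 shorter ones covered 1406 Mb.

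**Figure D1:**
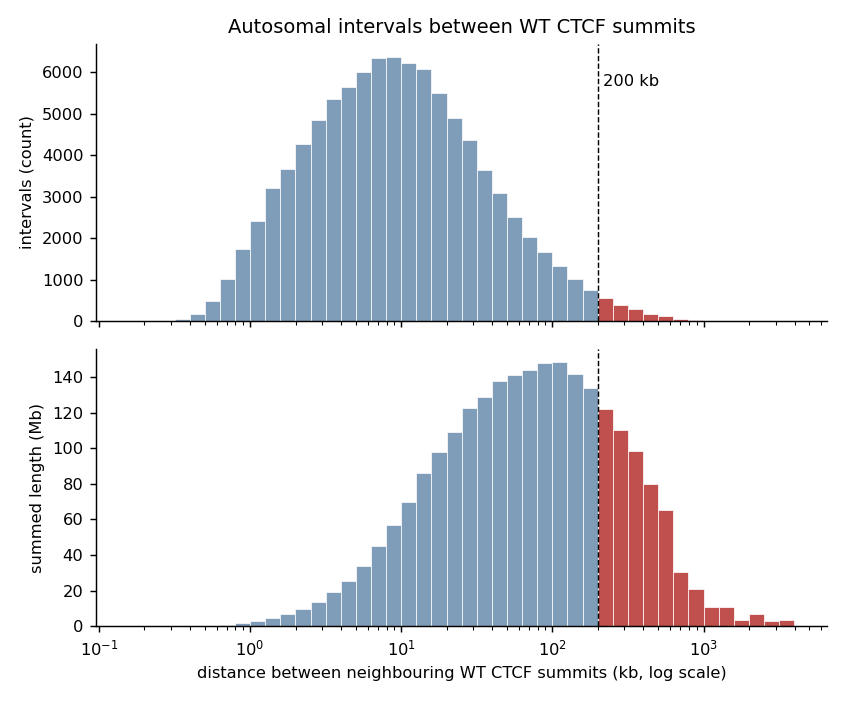
Number (top) and summed length in Mb (bottom) of autosomal intervals between neighbouring WT CTCF summits, by length in kb on a log axis. The 1604 stretches right of the dashed 200 kb line (red) are few in number but add up to 565 Mb.

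Chromosomes differed in how much of them the stretches covered. The share was 10.3% on chromosome 11, with 41 stretches, 15.4% on chromosome 9 and 16.5% on chromosome 19. It was highest on chromosome 3, with 148 stretches and 30.0%, followed by chromosome 14 with 29.9% and chromosome 16 with 28.0%. The background of the peak lists also differed by chromosome. In the WT CTCF list it was 1.40 times that of the other autosomes on chromosome 8 and 1.22 times on chromosome 11, and in the C59 CTCF list 1.36 times on chromosome 1 and 1.45 times on chromosome 11. Its part in the number of stretches on these chromosomes was not tested. Leaving out chromosomes 1, 8 and 11 left 1335 stretches.

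Many stretches were neighbours, separated by a single CTCF peak. They fell into 1294 runs, of which 223 held at least 2 stretches. The longest run in number held 6 stretches over 2.53 Mb at chr16:52453159-54984101 and overlapped no protein-coding gene. Runs of 5 stretches lay around Lingo2, which encodes a leucine-rich repeat membrane protein of the nervous system, at chr4:35463697-37445475, and around Fstl5 at chr3:76080402-77543105. Another run of 5 overlapped Ptprd, a receptor tyrosine phosphatase gene, at chr4:77655857-79027805.

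Protein-coding genes were sparse in the stretches. Counted by midpoint, there were 3.50 per Mb in stretches, 3.86 per Mb in intervals of 100 to 200 kb and 12.0 per Mb in shorter intervals. Of 20665 autosomal protein-coding genes in the RefSeq table, 1716 lay wholly inside a stretch, or 8.3% (exact Clopper-Pearson 95% interval 7.93 to 8.69%), while 2203 overlapped one. These intervals, and those below, cover counting error only. Long noncoding RNA genes followed the same order, with 2.12, 3.44 and 6.85 per Mb. Transfer RNA genes were the rarest of the biotypes counted, with 7 of 391 inside a stretch (1.79%). Pseudogenes did not thin out, at 4.06, 3.47 and 3.53 per Mb, and 25.7% of the 8884 lay wholly inside. Small nucleolar RNA genes did not either, with 28.5% of 1286 inside. Repeat content, mappability of reads and assembly gaps in the stretches were not measured, and their part in any count given here was not tested.

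By gene content the stretches fell into 4 kinds. No protein-coding gene overlapped 827 of them (51.6%), which covered 281 Mb. Another 329 held at least 1 whole gene, over 142 Mb, and 279 had only genes reaching in from an edge, over 93.3 Mb. The remaining 169, over 48.7 Mb, lay within the body of a gene. No annotated gene of any biotype overlapped 169 of the 827. The longest without a protein-coding gene was chr10:15679013-17079364, at 1400 kb, with 6 pseudogenes and 4 long noncoding RNA genes. Next came chr4:29525211-30852858 at 1328 kb and chr17:60048090-61321082 at 1273 kb.

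Whole genes were packed into few stretches. The 42 richest held 50% of the 1716 genes, 43 stretches held at least 10 genes each, and 18 at least 20. Chemoreceptor genes, meaning the olfactory and vomeronasal receptors that detect odours and pheromones, made up 805 of the 1716 (46.9%), in 83 stretches with a span of 35.1 Mb. The other 911 genes include many members of tandem arrays, described next.

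The longest stretch, chr7:20064274-23343787 at 3280 kb, held 85 genes, of which 70 were vomeronasal receptor genes, such as Vmn1r148, and 60 pseudogenes. Nlrp4e, a member of a family expressed in oocytes, also overlapped it. The second, chr7:7299551-10354910 at 3055 kb, held 24 vomeronasal receptor genes, among them Vmn2r35, Vmn2r48 and Vmn2r36. The third, chr5:93398172-95811040 at 2413 kb, held 18 Prame-like genes, among them Pramel38 and Pramel35. The fourth, chr2:174936893-177072908 at 2136 kb, held 16 genes known only by a Gm number and 5 zinc finger genes, and the fifth, chr7:31634666-33641850 at 2007 kb, held 21 secretoglobin genes such as Scgb2b20. The sixth, chr4:59933162-61811313 at 1878 kb, held 20 Mup genes, including 2 named as pseudogenes, Mup-ps12 and Mup-ps16. Mup proteins carry pheromones in urine. The stretches at chr14:42134973-43757312 and chr14:6108713-7681384 held 22 and 26 genes with Gm numbers, and that at chr6:129825755-131178651 held 10 Klra genes, which encode lectin-like receptors of natural killer cells. So 9 of the 10 longest stretches held clustered genes, and the other was the stretch of chromosome 10 without a protein-coding gene.

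The richest in olfactory receptors were on chromosomes 2 and 7. The stretch chr2:85725951-86464941, at 739 kb, held 44 olfactory receptor genes and no other protein-coding gene. Its neighbour chr2:86464941-87180851 held 30, with 1 CTCF peak between them. That peak had a WT CTCF fold of 22.6 and overlapped peaks of WT Smc3 and of C59 CTCF. The stretch chr2:111155491-112197048 held 37, among them Olfr1280, and chr7:103119614-103712180 held 31 beside 2 Usp17l genes. A stretch of chromosome 16, chr16:89053348-89510998, held 32 genes, of which 6 were keratin-associated protein genes such as Krtap6-2 and 25 carried Gm numbers.

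Counts for 27 lists of genes, matched by symbol, were read against the 8.3% of all protein-coding genes. The lists of microRNA genes and antigen receptor segments are not protein-coding. Of all miRNA biotype genes 5.19% lay wholly inside, and of all V segments 18.8%. The lists also differ in gene length, on which lying wholly inside depends. Among chemosensory genes, 245 of 352 vomeronasal receptors (69.6%) and 560 of 1104 olfactory receptors (50.7%) lay wholly inside a stretch, in 39 and 45 stretches. Of the bitter taste receptors, which sit on taste cells, 7 of 35 (20%) lay inside, among them Tas2r139, and of the trace amine receptors, another class of odorant receptor, 0 of 15 did. Among genes for secreted or reproductive proteins, 18 of 22 major urinary protein genes (81.8%), 19 of 26 prolactin family genes (73.1%), 21 of 40 secretoglobin genes (52.5%) and 31 of 49 Prame-like genes (63.3%) lay inside. Of the pregnancy-specific glycoproteins and their Ceacam relatives, 2 of 28 (7.14%) did, Ceacam5 and Ceacam14. Of the Speer family, 4 of 10 (40%) did, with Speer1 in a stretch of 1327 kb. The prolactin family, pituitary and placental hormones such as Prl, Prl3a1 and Prl8a2, did so in 4 stretches, while all 18 major urinary protein genes were in 1 stretch. In genes of defence, the counts were 17 of 29 (58.6%) for the lectin-like receptors of natural killer cells, 22 of 70 (31.4%) for defensins, which kill microbes, 87 of 469 (18.6%) for antigen receptor segments and 2 of 11 (18.2%) for the Skint family, known for T-cell selection in skin. Segments and receptors in tandem can be near-identical copies. Of 18 type I interferon genes, 0 (0%) lay in a stretch, with an upper bound of 18.5%. Among liver and detoxification genes, 19 of 99 cytochrome P450 genes, such as Cyp2c39 and Cyp2c38, lay inside (19.2%). So did 5 of 21 sulfotransferase genes (23.8%), 4 of 22 glucuronosyltransferase genes (18.2%) and 9 of 62 serpin genes (14.5%), which inhibit proteases. Of 56 keratin-associated protein genes, which serve in hair, 6 (10.7%) lay inside.

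Lists of genes that act in all cells or in early embryos had few or no members inside. None of 76 ribosomal protein genes lay inside a stretch, which allows up to 4.74%, a bound below 8.3%. None of 25 pluripotency genes did either, but this allows up to 13.7% and so does not separate them from all genes. The median interval around the midpoint of a gene was 8.45 kb for ribosomal proteins and 11.3 kb for pluripotency genes, against 24.8 kb for all protein-coding genes, 205 kb for olfactory and 302 kb for vomeronasal receptors. Of 207 genes for developmental transcription factors, 2 (0.966%) lay inside, the homeobox genes Zfhx4 and Dlx6, and 7 overlapped a stretch. Of 388 Zfp zinc finger genes, 23 (5.93%, 3.79 to 8.76%) lay inside, an interval that holds 8.3%, with Zfp966 and Zfp967 in the stretch of 2136 kb on chromosome 2. Of 1090 microRNA genes, 58 (5.32%) did, with Mir1952 in a stretch of 1000 kb. Since a family in tandem shares a stretch, members of one list are not independent, and the lists were not tested.

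**Figure D2:**
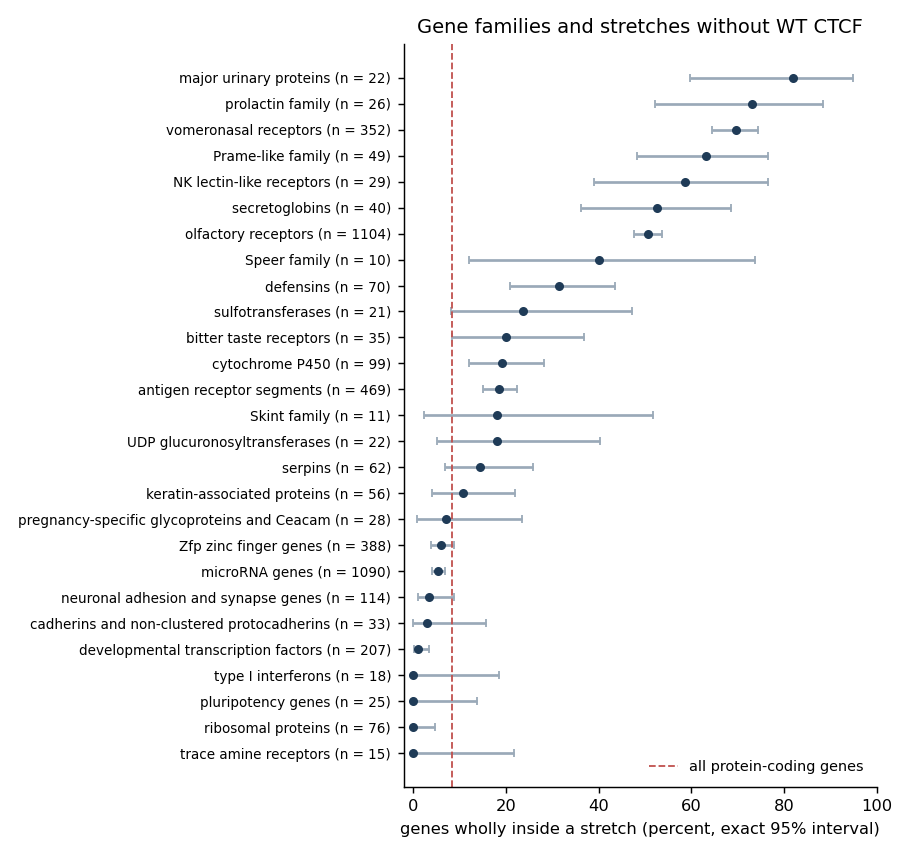
Percent of the genes of each list that lay wholly inside a stretch, with exact 95% intervals for counting error. The dashed line is the 8.3% of all protein-coding genes. Major urinary protein genes reach 81.8%, and the bottom 4 lists have no gene inside.

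Long genes of the nervous system overlapped stretches without lying wholly inside them. Of 114 genes for neuronal adhesion and synapses, 66 (57.9%, 48.3 to 67.1%) overlapped a stretch, while 4 (3.51%) lay wholly inside, namely Slitrk1, Gabrg1, Epha5 and Slitrk6. The median length of the listed genes was 577 kb. Of all 216 genes of at least 500 kb, 125 (57.9%) overlapped a stretch, against 10.2% of the 20449 shorter ones. Slitrk1, a neuronal membrane protein gene, lay alone in a stretch of 1304 kb, and Gabrg1, a subunit of the GABA-A receptor, alone in one of 1094 kb. Cntnap2, which encodes a contactin-associated adhesion protein, had the largest total in base pairs, with 1354 of its 2241 kb in 4 stretches. Ptprd followed with 1306 kb, or 57.5% of its length. Lingo2 was covered over its whole 1255 kb in 5 stretches and had 4 WT CTCF peaks. Lrp1b, a receptor of the LDL receptor family, had 1159 kb (56.3%) in stretches, and Lrrc4c, a ligand of netrin-G, 1022 kb (77.8%). Erbb4, a neuregulin receptor, had 919 kb (85.4%). The tumour suppressor gene Fhit had 973 kb, Nrxn3, a presynaptic neurexin, 933 kb, and Macrod2 924 kb. In all, 140 genes hosted 175 stretches within their body. Cadherin genes, another adhesion family, had 12 of 33 overlapping and 1 (3.03%) inside, Cdh19.

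Promoters of genes inside the stretches were poor in GC. The RefSeq table of 300-base promoter windows, 250 before and 50 after the start, had entries for 85.5% of the 1710 genes inside on the chromosomes it covers and for 81.3% of those not inside. The median GC content was 39.3% inside and 58.0% not inside, and the median number of CG dinucleotides 1 and 15. With chemoreceptor genes taken out, the medians were 45.0% and 58.3% for GC and 2 and 16 for CG, so the difference remained, smaller in GC. Within the olfactory receptors the GC medians were 33.7% inside and 37.7% not inside, and within the vomeronasal receptors 36.3% and 37.0%.

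Very few peaks of the other lists lay inside the stretches away from their edges. Of 80258 autosomal C59 CTCF peaks, 1326 had their summit inside a stretch (1.65%), but 1195 of these overlapped a CTCF peak at an edge. The same held for 801 WT Smc3 peaks (1.73%), of which 765 overlapped an edge peak, and for 409 C59 Smc3 peaks (1.61%), of which 406 did. That left 131 C59 CTCF, 36 WT Smc3 and 3 C59 Smc3 peaks in the interior, where interior means that they overlap no WT CTCF peak. These were 5.61%, 1.59% and 0.589% of all autosomal peaks of their list without a WT CTCF overlap, while the stretches took up 23.6% of the span. No interior peak of any of the 3 lists was in 1454 of the 1604 stretches.

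Per Mb, C59 CTCF peaks that overlap no WT CTCF peak stood at 0.232 (exact Poisson 95% interval 0.194 to 0.275) in stretches, 0.460 in intervals of 100 to 200 kb and 1.43 in shorter intervals. For WT Smc3 the values were 0.0637 (0.0446 to 0.0882), 0.190 and 1.52 per Mb, and for C59 Smc3 0.00531 (0.00109 to 0.0155), 0.00704 and 0.358 per Mb. The order was thus the same in all 3 lists, though the values for C59 Smc3 in stretches and in intervals of 100 to 200 kb rest on 3 peaks each, and their intervals overlap.

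**Figure D3:**
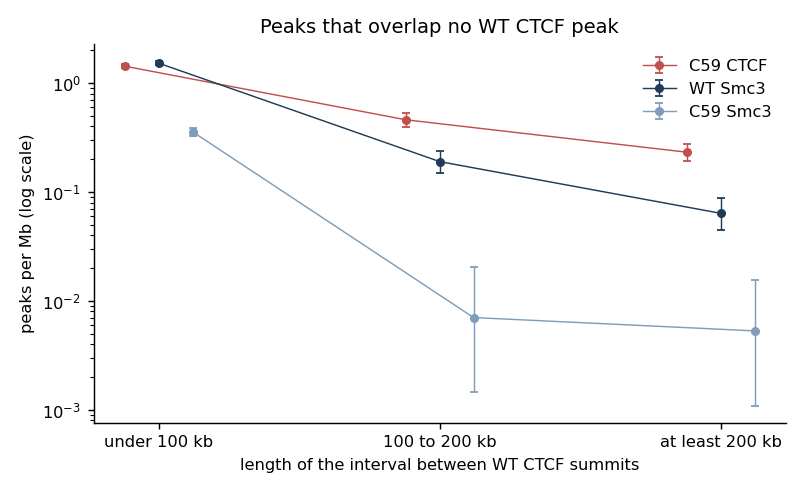
Peaks per Mb (log axis) that overlap no WT CTCF peak, by length of the interval between WT CTCF summits, with exact Poisson 95% intervals. All 3 lists are highest in intervals under 100 kb and lowest in stretches.

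Interior C59 CTCF peaks were scattered, and they were weak, as C59 CTCF peaks without WT CTCF were elsewhere. Their median fold enrichment, the authors' ratio of pileup to local background, was 4.43, with a range of 2.77 to 7.17, and the largest was at percentile 33.8 of the list. They lay in 126 stretches (7.86%), at most 2 in any 1, at a median of 76.5 kb from the nearer edge. None of the 122 on chromosomes with promoter entries lay within 1 kb of a gene start, against 11.4% of such peaks elsewhere. Of the 131, 33 were on chromosome 1, or 0.661 per Mb of stretch (0.455 to 0.929), against 0.188 (0.151 to 0.231) on the 16 autosomes other than 1, 8 and 11. On chromosome 11 the density was 0.573 (0.230 to 1.18), from 7 peaks, and on chromosome 8 it was 0.0408 (0.00103 to 0.227), from 1 peak. The background of this list was 1.36 times that of the other autosomes on chromosome 1 and 1.45 times on chromosome 11. On chromosome 8 it was 1.00 times. The part of the background in these peaks was not tested.

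The strongest interior C59 CTCF peak, with a fold of 7.17, lay within Cntnap2 at chr6:45963874-45964182, 80.2 kb from the nearer edge. The next had folds of 6.54 at chr1:73049830-73050231, 6.33 at chr1:42376090-42376465 and 6.28 at chr1:41597213-41597937. The nearest protein-coding genes were Tnp1, a gene for a sperm nuclear protein, at 34.1 kb, Pou3f3 at 319 kb and Tmem182 at 741 kb, while long noncoding RNA genes started nearer, at 25452, 25397 and 24289 bp. The fifth place was shared by 3 peaks with a fold of 6.12, at chr1:85243711-85243974 in Gm38510 and C130026I21Rik and at 2 places on chromosome 18. None of these 7 peaks overlapped a Smc3 peak of either line. Of the 131, 3 (2.29%) overlapped WT Smc3, near the 2.00% of C59 CTCF peaks elsewhere without WT CTCF.

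Interior WT Smc3 peaks differed in place. Their median fold was 3.31, with a range of 2.31 to 5.62, in 29 stretches. Elsewhere, WT Smc3 peaks without WT CTCF had a like median fold, 3.32. Of the 36, 17 lay within 10 kb of an edge, and 8 (22.2%, 10.1 to 39.2%) within 1 kb of a gene start, against 20.9% of WT Smc3 peaks elsewhere without WT CTCF. Their density was 1.25 per Mb in the first 1 kb from an edge, 0.450 from 1 to 10 kb and 0.0234 from 10 to 50 kb, with 4, 13 and 3 peaks. Beyond 100 kb it was 0.0328, from 8 peaks. Several peaks near an edge were close neighbours of one another, by Dusp4, Meis1, Meis2 and Tent5a. They were counted singly, so the peaks are not all separate places. C59 CTCF peaks had no such fall in density, with 0.312, 0.242 and 0.257 per Mb in the first 3 bands and 0.188 beyond 100 kb. These values rest on 1, 7, 33 and 46 peaks. In the first band the C59 CTCF interval, 0.00789 to 1.74, overlaps that of WT Smc3, 0.340 to 3.19. Interior WT Smc3 peaks stood at 0.204 per Mb (0.0662 to 0.476) on chromosome 8, from 5 peaks. On chromosome 11 the value was 0.246 (0.0507 to 0.718), from 3 peaks. It was 0.0544 (0.0355 to 0.0796) on the 16 autosomes other than 1, 8 and 11, and these intervals overlap. The WT Smc3 background was 1.497 times that of the other autosomes on chromosome 8 and 1.248 times on chromosome 11. Its part in these peaks, including those by Dusp4 on chromosome 8, was not tested.

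At 3 places Smc3 was found in both lines without WT CTCF. All 3 interior C59 Smc3 peaks thus overlapped WT Smc3 (29.2 to 100%). Elsewhere, 61.9% of the 506 C59 Smc3 peaks without WT CTCF did so. The strongest of the 3 in C59 lay at chr16:25523291-25525721, in a stretch of 498 kb. That stretch holds Trp63, the gene of the p63 transcription factor of epithelia. The C59 Smc3 fold there was 7.66, and the WT Smc3 list had a peak of fold 4.61 at chr16:25523230-25524969 and a second of fold 3.25 beside it. The nearest protein-coding gene was Tprg, 100 kb away, and no CTCF peak of either line overlapped it. Within Adgrb3, an adhesion receptor gene of neurons, the folds were 4.07 in WT and 4.55 in C59 at chr1:25228543-25228898 (the WT peak). Near Cox7c, a subunit of cytochrome c oxidase, they were 2.80 in WT and 3.77 in C59, and a further WT peak of fold 3.30 stood 484 bp from the gene's start.

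The strongest interior Smc3 peaks seen in WT alone lay within 14.3 kb of an edge. A fold of 5.62 was measured at chr12:42972774-42973106 in Gm33340, 14.3 kb from an edge. A fold of 4.70 stood 67 bp from the start of Sox6os, antisense to the transcription factor gene Sox6. Folds of 4.65 and 4.58 lay within Rspo3, which encodes a Wnt signalling enhancer, and 8.59 kb from the homeobox gene Meis2, both under 5 kb from an edge. The peak in Rspo3 overlapped a C59 CTCF peak. Others, chosen after their values were seen, had summits within 1 kb of the starts of the first 4 genes printed above. The peak at Opcml, chr9:27791311-27791563, lay past the start and overlapped none of the printed bases. Smc3 had a fold of 3.63 at a summit 36 bp from the start of Fzd1, a Wnt receptor gene that was the only whole gene of its stretch and lay 57.4 kb from an edge. At Rasgrf2, which encodes an exchange factor for Ras, the fold was 2.93 at 38 bp from the start, 90.0 kb from an edge. At Opcml, an adhesion protein gene, it was 3.43 at 248 bp from the start, and at Tent5a, a poly(A) polymerase gene, 3.28 at 422 bp, within 1 kb of an edge. No peak of either C59 list overlapped these 4 Smc3 peaks.

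**Figure D4:**
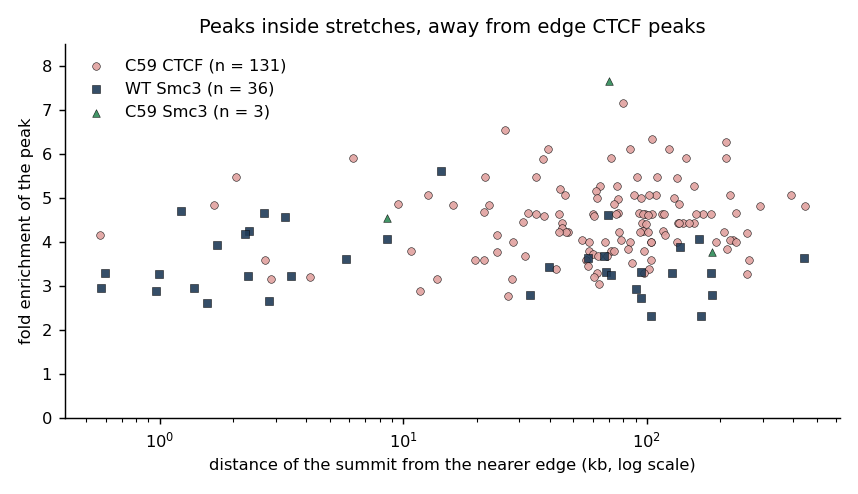
Fold enrichment of each interior peak against the distance of its summit from the nearer edge of its stretch (kb, log axis). WT Smc3 peaks (squares) gather within 10 kb of an edge, where 17 of 36 lie, while 123 of 131 C59 CTCF peaks (circles) lie farther in. Some of the 17 are close neighbours at the same place. Folds of different lists are scaled differently and are not to be compared.

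The stretches were largely shared by the tagged line. The C59 CTCF list by itself gave 1802 intervals of at least 200 kb, over 673 Mb, or 28.1% of its span. The midpoints of 1569 of the 1604 WT stretches (97.8%, 97.0 to 98.5%) fell within one of these. In 480 (29.9%) the C59 interval was over 1.1 times as long as the WT stretch. With summits of both lines together, 1579 intervals of at least 200 kb remained. Of the 80258 autosomal C59 CTCF peaks, only 2336 overlapped no WT CTCF peak. Few C59 peaks could thus divide a WT stretch, so a high shared count was largely set in advance.

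The stretches were bounded by 2898 CTCF peaks, 310 of which stood between 2 stretches. Their median fold was 8.23 (7.91 to 8.61), against 9.54 (9.49 to 9.67) at the 93426 other autosomal CTCF peaks, and 7.12 at those between 2 stretches. Edge peaks were found in C59 CTCF in 76.9% of cases (75.3 to 78.4%), against 80.0% of the others. Fewer edge peaks lay near gene starts, with 9.13% (8.09 to 10.3%) within 10 kb of a protein-coding gene start, against 28.0% of other peaks. Distance to gene bodies is not given here. By the rule, each edge peak also had a stretch, where genes were sparse, on at least 1 side. On the other side from the stretch, 19.8% of the 2588 peaks that edge 1 stretch had the next CTCF summit within 10 kb. That share is low, since all autosomal intervals had a median length of 8.83 kb and so most were under 10 kb.

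Over all edge peaks the share with Smc3 was close to that of other CTCF peaks, and averaged over groups of like fold it was higher. WT Smc3 overlapped 44.3% of edge peaks (42.5 to 46.1%) and 44.4% of others, and C59 Smc3 25.7% (24.2 to 27.4%) and 25.2%. When the peaks were split into 10 equal groups by WT CTCF fold and the shares averaged over the groups, WT Smc3 was at 49.5% of edge peaks and 44.3% of others, and C59 Smc3 at 31.8% and 25.0%. The difference for WT Smc3, 5.22 percentage points, was 12.9 points when the overlap had to cover at least 50% of both peaks. For C59 CTCF these means were 78.7% and 79.9%. In the seventh group, with folds of 12.9 to 17.6, WT Smc3 was at 85.1% of edge peaks (80.6 to 88.9%) and 69.1% of others (68.2 to 70.1%), and C59 Smc3 at 44.3% (38.7 to 50.1%) and 28.1% (27.2 to 29.0%). The median fold in that group was 15.1 at edge peaks and 15.2 at others, and the median width 604 and 688 bp. In the ninth group C59 Smc3 was at 90.5% and 71.8%. Of the 10 groups, the seventh had the widest difference for WT Smc3 and the ninth the widest for C59 Smc3. In the tenth group WT Smc3 was at 98.4% of edge peaks and 97.3% of others. The edge share was the higher in 9 of 10 groups for WT Smc3 and in 6 of 10 for C59 Smc3. In groups 1 to 4 C59 Smc3 was rarer at edges, with at most 0.635% of edge peaks and 0.959% of others.

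At like fold, the share with Smc3 also rose with the distance to the next CTCF peak over all autosomal peaks. Averaged over the fold groups, WT Smc3 was at 43.3% of peaks whose longer flanking interval was under 10 kb, 43.8% from 10 to 50 kb, 47.1% from 50 to 100 kb, 48.4% from 100 to 200 kb and 49.5% at stretch edges. The values for C59 Smc3 were 23.3%, 24.8%, 28.4%, 31.0% and 31.8%. Without the averaging over fold groups the shares did not rise throughout. They were 43.4%, 44.2%, 47.4%, 46.9% and 44.3% for WT Smc3 and 23.9%, 25.1%, 27.8%, 28.8% and 25.7% for C59 Smc3, and so were lower at stretch edges than in the class before. The median WT CTCF fold was also lower at the edges, 8.23 against 9.14 in that class. These differences were not tested.

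**Figure D5:**
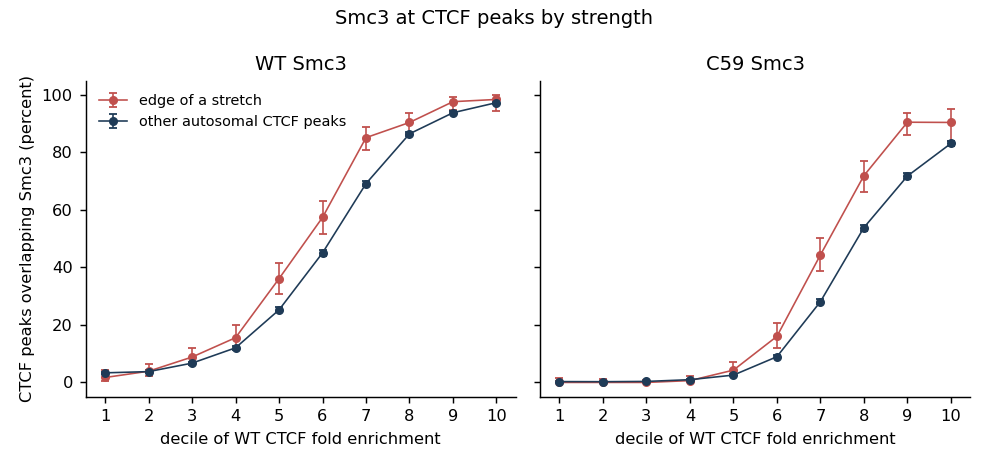
Percent of WT CTCF peaks that overlap a Smc3 peak, in 10 equal groups by WT CTCF fold enrichment, for peaks at the edge of a stretch (red) and other autosomal CTCF peaks (dark blue), with exact 95% intervals. In group 7 the edge peaks are at 85.1% for WT Smc3 and 44.3% for C59 Smc3, above the other peaks. Group 7 has the widest difference of the 10 for WT Smc3. In groups 1 to 4 C59 Smc3 is lower at edge peaks.

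Some edges carried strong peaks in all 4 lists. The strongest peak between 2 stretches was at chr6:45323301-45324152, within Cntnap2, with a WT CTCF fold of 35.3, a C59 CTCF fold of 38.8 and Smc3 folds of 11.6 in WT and 8.67 in C59. The strongest edge of all was at chr2:148902009-148903032, with CTCF folds of 54.2 in WT and 46.8 in C59 and Smc3 folds of 31.9 and 20.5. A further one at chr3:14381221-14382499 had CTCF folds of 53.1 and 64.0 and Smc3 folds of 30.6 and 24.7, and flanked a stretch of 485 kb. Folds of different lists are given side by side and were not compared.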

How the data were processed

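ChIP-seq peak lists for CTCF and Smc3, 1 library per line and protein, were analysed as deposited. Input and control IgG samples were not used here. The submitters' processing notes list the build mm10 and, without saying what each was used for, MACS2 2.1.0.20140616, Bowtie 0.12.8, deepTools 2.4.1, CASAVA and FastQC 0.10.1. Control library and threshold are not given in the sources used here. Per the labels, the extraction protocol names Rad21 and CTCF antibodies, whereas the antibody label of the Smc3 libraries names Smc3, which was followed. The deposited columns are the authors' pileup signal at the summit, their p-value and q-value, their fold ratio of pileup to background, and peak lengths and summit positions in bp. Folds were used within a list only. Background at a summit was taken as (pileup + 1) / fold - 1.

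Intervals were measured between neighbouring WT CTCF summits on 19 autosomes with pandas 2.3.3, numpy 2.4.6 and scipy 1.17.1 under Python 3.11.15, with figures from matplotlib 3.10.9. Peaks overlapped at 1 bp or more. Genes and promoters came from RefSeq tables of GRCm38.p6, and promoters of chromosome 18 were not used here. No genome sequence was used, so the planned motif search in peak windows was not run. Shares carry exact Clopper-Pearson and densities exact Poisson 95% intervals. No test between groups was made. The interval and overlap counting was tested on simulated data. Named genes are those overlapping the 10 longest stretches and the 5 richest in genes (up to 5 each), the 10 with most base pairs in stretches, those nearest the 5 strongest interior peaks of each list, and up to 3 of each gene list. An item that this rule names is not reported here. The members and the lists were chosen with earlier results of these data known. Alternatives changed the minimum length, the peak filter, the autosomes, the definition of a gene inside and the overlap.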

Additional observations from a re-analysis of the deposited data

How the results depend on the processing

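No paired analysis was possible because each group has 1 library. The edge differences for WT and C59 Smc3, in the mean over fold groups, did not change direction under the alternatives run. For the other results only the size was checked, and the minimum length moved most values. At 150 kb there were 2588 stretches, 10.2% of protein-coding genes and 59.3% of olfactory receptor genes lay inside, the summits inside numbered 2.99, 1.83 and 0.985 per Mb for C59 CTCF, WT Smc3 and C59 Smc3 (2.35, 1.42 and 0.724 at 200 kb), and the median edge fold was 8.69. At 300 kb the values were 751 stretches, 5.85%, 33.6%, and 1.75, 0.983 and 0.510 per Mb, with WT Smc3 at 42.3% of edge peaks. Counting genes by any overlap gave 10.7% and by midpoint 9.57%, and leaving out chromosomes 1, 8 and 11 gave 9.48% wholly inside. At least 10 kb from both edges the densities fell to 0.231, 0.0357 and 0.00375 per Mb, and without peaks on edge CTCF peaks to 0.232, 0.0637 and 0.00531, since most summits inside belong to edge peaks. With an overlap of at least 50% of both peaks, WT Smc3 was at 39.6% of edge peaks, and the edge share exceeded the other by 12.9 percentage points in the mean over fold groups, against 5.22 at 1 bp; the cause was not tested. The number of stretches was 1596 from peak end to peak start, 1604 with a q-value of at most 0.01, 1837 with a fold of at least 5, 1802 from C59 CTCF and 1579 from both lists. Alternatives for the olfactory share and for the edge differences were chosen after seeing the data. The alternative without stretches rich in assembly gaps was not run, as no genome was used. Depth is unknown, so peaks under each list's threshold limit every count.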
